A study of Rattus norvegicus with 3 samples.

Results

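Ribosomal protein genes of rat kidney inner medulla were compared between lithium-treated and control rats. The genes were chosen by symbol alone: a single gene symbol in the array's probe annotation that begins with Rpl or Rps followed by a digit, or with Rplp, leaving out the Rps6k kinases. This gave 70 of 4390 named genes, 44 of the large (60S) and 26 of the small (40S) subunit, each with 1 probe. Each of 3 arrays carried inner medulla RNA of rats given lithium for 1 month (channel 1, red) against RNA of control rats (channel 2, green), so the lithium and control groups met on every array. On arrays 1 and 2 each channel was a pool of 2 rats and on array 3 it came from 1 rat, and the labels give each array other animals. The sources used here do not give strain, sex, age or lithium dose. Values were deposited as log ratios of unstated base and direction. They were read as lithium over control because lithium is channel 1 in the labels, which makes that direction likely.

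The arrays carried 5760 probes, of which 5582, 5682 and 4287 were filled in on arrays 1, 2 and 3, and 3819 features (a named gene or an unnamed probe) had all 3 values. The ribosomal genes were nearly fully measured: 69, 70 and 69 of the 70 had a value on arrays 1, 2 and 3, and 68 had all 3 values. Lithium RNA was red on every array, so dye and treatment cannot be told apart. Lithium is known to lower the abundance of Aqp2, the vasopressin-regulated water channel of the collecting duct. Read as lithium over control, Aqp2 had ratios of 0.11, 0.26 and 0.14, a mean of 0.17 ± 0.08 (SD, n = 3). Its sign is thus opposite to the known effect, and the direction is not settled by that gene either. Ratios carry no level, so the labelled tissue could not be checked by the presence of its markers. In bulk tissue, fewer cells of a type and less RNA per cell cannot be told apart.

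Cytosolic ribosomes are built from a large subunit, which forms the peptide bond and holds the tunnel through which the new protein leaves, and a small subunit, which reads the messenger RNA. Each subunit holds ribosomal RNA and many small proteins made in matched amounts. In vertebrates the messages of these proteins begin with a C followed by a run of C and T bases, the terminal oligopyrimidine tract, through which growth signals and the kinase mTOR adjust their translation together. Lithium acts on the collecting duct, where it is taken up through the epithelial sodium channel.

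Transcript starts are printed to show where this tract is and is not found at the annotated base, a feature that the choice of genes by symbol did not use. RefSeq's promoter table (build GRCr8) held an entry for 58 of the 70 genes, and the windows are those of the 3 highest and the 2 lowest of these in each subunit by mean ratio, ties included. Each window runs from 10 bases before the annotated start to 20 bases from it, 5′ to 3′, and capitals mark a C at the annotated start together with the C and T bases that follow it without a break, where there are at least 4 of them. A window in lower case has no such tract at that exact base.
Rpl31, chr9:49143101-49143130, plus strand: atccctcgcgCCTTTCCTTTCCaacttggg
Rpl17, chr18:70856266-70856295, plus strand: ttcgcgcttcCTCTTCCTgttagcggccag
Rpl21, chr12:13386134-13386163, minus strand: ttccgccggggcagccatcttccaggttgg
Rplp2, chr1:205975911-205975940, plus strand: cgccgccggacgccgccgaggtcgcacgcg
Rps2, chr10:14251838-14251867, plus strand: tctttttcttcgggaaaacacgtgagtctg
Rps4x, chrX:71342902-71342931, minus strand: cgcgcgcagcctccgaccctaatttcttcg
Rps6, chr5:106420521-106420550, minus strand: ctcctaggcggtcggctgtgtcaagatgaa
Rpl9, chr14:43247580-43247609, plus strand: aggacgttctCTCTTTgccccatctactgc
Rpl36al1, chr6:93392239-93392268, minus strand: cttccgctccatccgtccctttcctgttcg
Rpl36, chr9:1533770-1533799, plus strand: cggccgccatcggaaagctgcaggtaagtc
Rps19, chr1:89608678-89608707, plus strand: cttgtgcgcccgggaaaccccgtcgttccc
Rps28, chr7:15311314-15311343, minus strand: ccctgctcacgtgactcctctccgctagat
In this search, on the transcribed strand, 22 of the 58 genes (37.9%) had the tract at the annotated start, against 550 of 21851 protein-coding genes in the table (2.52%). It was found in 15 of 36 large and 7 of 22 small subunit genes. Allowing the tract to begin up to 5 bases to either side of the annotated start, a choice made after seeing the data, gave 35 of 58 (60.3%), against 16.5% of protein-coding genes. Where the windows of Rps2 and Rps28 hold no capitals, a run of C and T lies before or after the annotated base. The difference in ratio between genes with and without the tract was not tested: the median was 0.07 over the 22 measured genes with it and 0.0617 over the 34 without it.

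Most ribosomal protein genes had small positive ratios, read as lithium over control. Each array was centred on the median of all its probes, and all ratios below are on that scale. Their median mean ratio was 0.0683, and 59 of the 68 genes were above 0 (55.7% of all features), 8 were below (42.7% of all features) and 1 was at 0. The median of all 3819 features tested was itself 0.0133, so the count was also taken against that value. Of the ribosomal genes 55 of 68 lay above it (80.9%), where 48.6% of all features did. Above the upper quartile of all features lay 40 of the 68 (24.0% of all features) and below the lower quartile lay 1, Rpl27 (24.1% of all features). None of the 68 passed a limma adjusted p of 0.05, where 0.445% of all features did. At an unadjusted p under 0.05, limma had 15 of them as higher (9.71% of all features) and 0 as lower (7.52% of all features). A fit with each gene's own variance also called 0 of them (0.209% of all features), with 10 at an unadjusted p under 0.05 (11.8% of all features). With limma's array weights, which gave array 1 a weight of 4.52 against 0.371 and 0.596 for arrays 2 and 3, 29 of the 68 passed, all higher, and so did 27.6% of all features (15.2% higher and 12.4% lower).

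**Figure D1:**
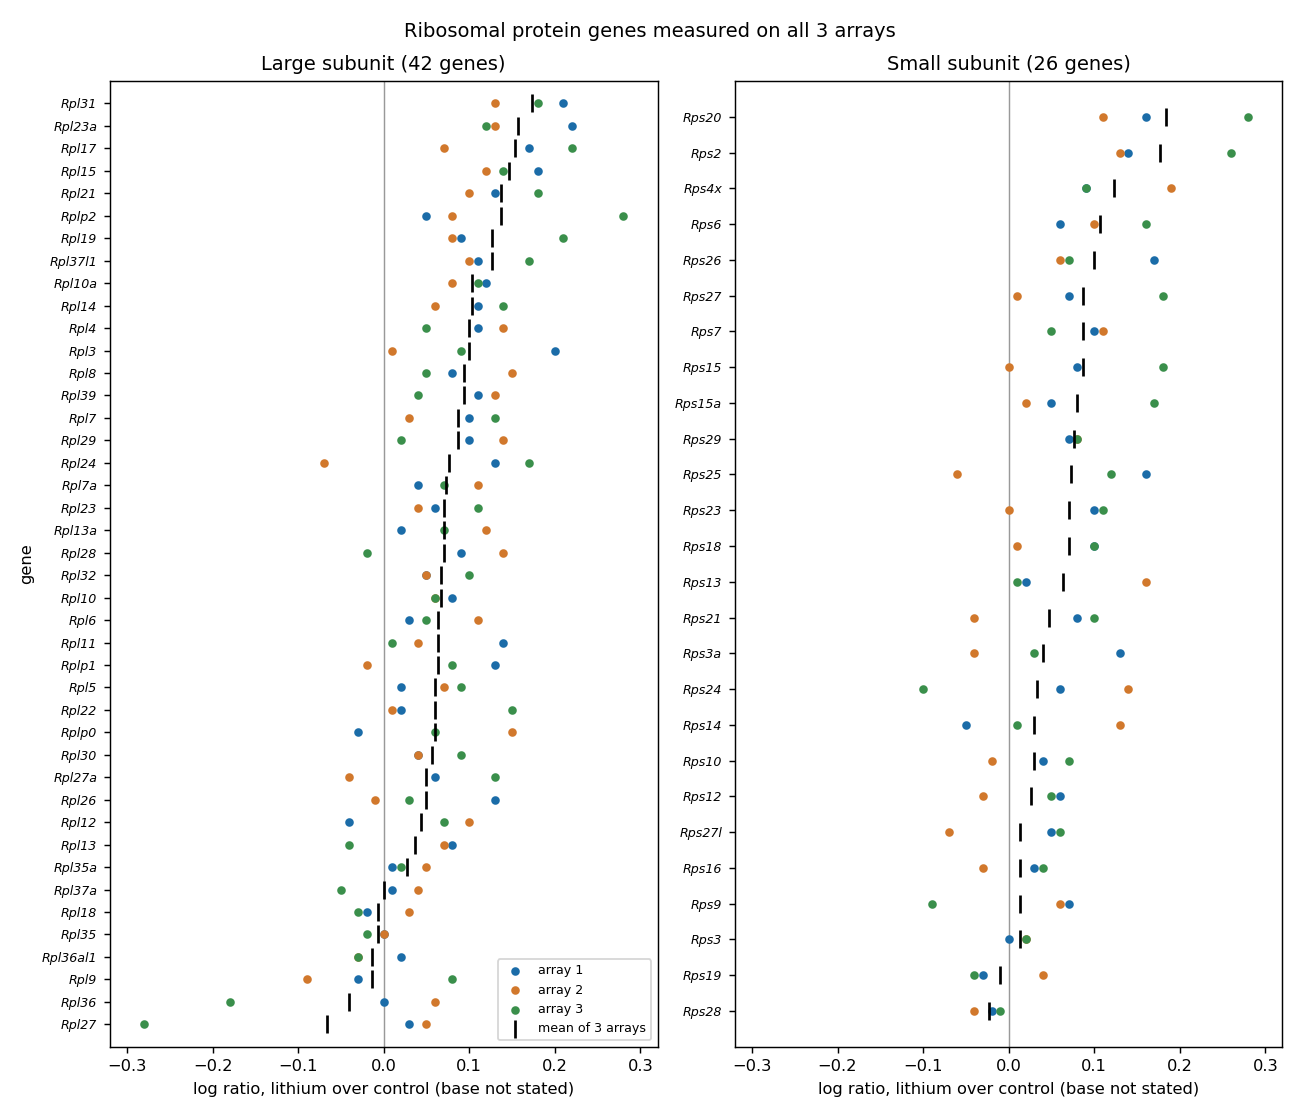
Log ratio of each ribosomal protein gene measured on all 3 arrays (horizontal axis, lithium over control, log base not stated), for the 42 large subunit genes (left) and the 26 small subunit genes (right), ordered by mean. Coloured points are the arrays and the black bar is their mean; most means lie above 0, and the 3 arrays of a gene often lie farther apart than neighbouring genes do.

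The shift was seen on arrays 1 and 3 and hardly on array 2. On array 1 the median of the 68 genes was 0.07, against 0.01 for all features tested. On array 3 it was 0.07, against 0.00. On array 2 it was 0.06, against 0.04. The number of ribosomal genes above the array's own median of all features was 56 of 68 on array 1 (48.4% of all features), 38 of 68 on array 2 (47.0% of all features) and 56 of 68 on array 3 (48.9% of all features). Above that median on every array lay 28 of the 68 (18.8% of all features). Below it on every array lay 3, namely Rpl18, Rpl35 and Rps28 (19.3% of all features). With all arrays the large and small subunit medians were 0.055 and 0.0533 above that of all features. They were 0.065 and 0.04 above it without array 1, 0.07 and 0.0725 without array 2, and 0.06 and 0.0425 without array 3. The large subunit distance was thus higher whichever array was left out, and the small subunit distance was higher only without array 2. These fits took in other sets of features, 3834, 3832 and 4902 without arrays 1, 2 and 3, against 3819. Without array 3 the large subunit median itself was lower, at 0.065 against 0.0683. The median of all features was then 0.005 against 0.0133.

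Large subunit genes had the higher median on every array, and the mean of that difference was within its SD between arrays. The 42 large subunit genes had a median mean ratio of 0.0683 and the 26 small subunit genes one of 0.0667. By array the large subunit medians were 0.08, 0.065 and 0.075, and those of the small subunit were 0.07, 0.02 and 0.07. The difference, large minus small, was therefore 0.01, 0.045 and 0.005, which is 0.02 ± 0.0218 (mean ± SD over arrays, n = 3). Ratios were deposited with 2 decimals, so the differences on arrays 1 and 3 are no larger than the recorded step of 0.01. On array 2 the small subunit median lay 0.02 below that of all features tested, at 0.02 against 0.04, whereas the large subunit median lay 0.025 above it. On that array 27 of 42 large (64.3%) and 11 of 26 small subunit genes (42.3%) were above the median of all features, where 47.0% of all features were. Above the median of all features by their mean were 35 of 42 large and 20 of 26 small subunit genes (48.6% of all features). Above 0 on every array were 27 of 42 large (64.3%) and 11 of 26 small subunit genes (42.3%), where 24.1% of all features were. With each print block centred, the medians were 0.08 for large and 0.0567 for small subunit genes, and 24 of 42 and 6 of 26 were above the median of all features on every array (20.6% of all features). No test of the difference was made over the genes, which share the same 3 hybridisations.

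**Figure D2:**
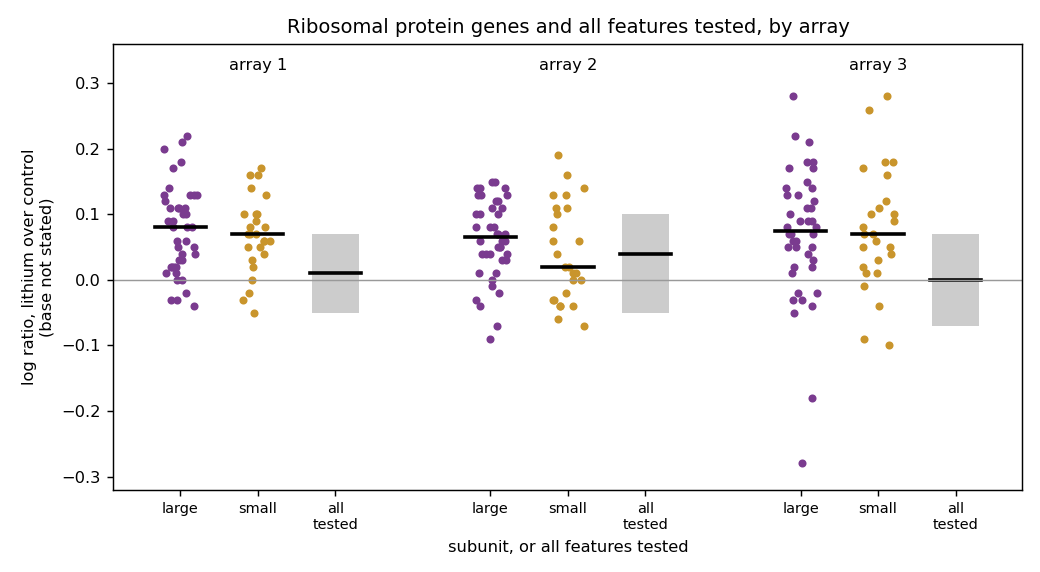
Log ratio (vertical axis, lithium over control, log base not stated) of each large subunit gene (purple) and small subunit gene (ochre) on the 3 arrays, beside all 3819 features tested. Black bars are medians and the grey box spans the middle 50% of all features; on arrays 1 and 3 both subunits sit above the grey box's median, and on array 2 the small subunit median of 0.02 is below 0.04.

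Of the large subunit, Rpl31, Rpl23a and Rpl17 had the highest means, and none of them passed the test. Rpl31, a protein at the rim of the exit, had ratios of 0.21, 0.13 and 0.18 on arrays 1, 2 and 3, a mean of 0.17 ± 0.04 (SD, n = 3, limma adjusted p = 0.134). That is 1.49-fold if the base is 10 or 1.13-fold if it is 2. Rpl23a, the exit protein on which the signal recognition particle docks, had 0.22, 0.13 and 0.12. Rpl17, which lines the tunnel, had 0.17, 0.07 and 0.22. All 9 values of these genes were above 0 and above the array's median of all features. The adjusted p was 0.153 for Rpl23a and 0.176 for Rpl17. Next in order were Rpl15, in the core of the subunit, with 0.18, 0.12 and 0.14 (adjusted p = 0.155), and Rpl21 with 0.13, 0.10 and 0.18 (adjusted p = 0.176). The stalk gene Rplp2 had the same mean as Rpl21, 0.14, but an SD of 0.13 against 0.04 (adjusted p = 0.258).

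The stalk genes, whose products bind the GTPase factors of translation, each had another array as their highest. Rplp2, an acidic stalk protein, had ratios of 0.05, 0.08 and 0.28, so array 3 supplied most of its mean. Its partner Rplp1 had 0.13, −0.02 and 0.08, and Rplp0, the base on which the acidic proteins sit, had −0.03, 0.15 and 0.06. Of this trio Rplp2 peaked on array 3, Rplp1 on array 1 and Rplp0 on array 2, and the means of Rplp1 and Rplp0 were both 0.06 (adjusted p = 0.506 and 0.552). Rpl5 and Rpl11, which carry the 5S ribosomal RNA and can bind the p53 regulator Mdm2 when assembly fails, had the same mean of 0.06 from different arrays. Rpl5 had 0.02, 0.07 and 0.09, and Rpl11 had 0.14, 0.04 and 0.01.

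Other large subunit genes with known roles lay between these. Rpl10, a late-joining protein near the peptidyl transferase centre, had 0.08, 0.06 and 0.06, which is 0.07 ± 0.01 (adjusted p = 0.409). Rpl3, whose product reaches towards the same centre, had 0.20, 0.01 and 0.09, so its SD of 0.10 was as large as its mean of 0.10 (adjusted p = 0.342). Rpl13a had 0.02, 0.12 and 0.07. Rpl22 had 0.02, 0.01 and 0.15, so array 3 supplied most of its mean of 0.06. Rpl26, another tunnel exit gene, had 0.13, −0.01 and 0.03, a mean of 0.05 ± 0.07.

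At the small subunit, Rps20 and Rps2 led. Rps20, a protein of the subunit's head, had ratios of 0.16, 0.11 and 0.28, a mean of 0.18 ± 0.09 (SD, n = 3, limma adjusted p = 0.144). Rps2, at the entry of the messenger RNA channel, had 0.14, 0.13 and 0.26, a mean of 0.18 ± 0.07 (adjusted p = 0.142). For each of the pair the 3 values were above 0, and array 3 gave the highest. Rps3, beside Rps2 at the channel entry, had 0.00, 0.02 and 0.02, a mean of 0.01 ± 0.01 (adjusted p = 0.894). Rps3 lay below Rps2 on every array, and the difference was not tested.

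The remaining small subunit genes near the top were spread over its parts. Rps4x, the X-linked copy of Rps4, had 0.09, 0.19 and 0.09 (adjusted p = 0.215) and was highest on array 2, unlike Rps20 and Rps2. Rps6, the classic phosphorylation target of the S6 kinases downstream of mTOR, had 0.06, 0.10 and 0.16, a mean of 0.11 ± 0.05 (adjusted p = 0.255). Rps26, at the exit of the messenger RNA channel, had 0.17, 0.06 and 0.07 (adjusted p = 0.291). Rps15, Rps27 and Rps7 shared a mean of 0.09. Rps15 had 0.08, 0.00 and 0.18, and Rps27 had 0.07, 0.01 and 0.18. Rps7 had 0.10, 0.11 and 0.05, so it was lowest where the other pair was highest. Rps14, a protein of the platform, had −0.05, 0.13 and 0.01, with an SD of 0.09 around a mean of 0.03.

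A minority of members lay at or below the median of all features, and few of them did so on every array. Rpl27 had 0.03, 0.05 and −0.28, and Rpl36 had 0.00, 0.06 and −0.18. These means of −0.07 ± 0.19 and −0.04 ± 0.12 rest on array 3, the array with 1 rat per channel. Without array 3 their means were 0.04 for Rpl27 and 0.03 for Rpl36. Rps9, with 0.07, 0.06 and −0.09, was lowest on array 3 too. Rps28 had −0.02, −0.04 and −0.01 and was the only member below 0 on every array (14.6% of all features were), while 38 of the 68 were above 0 on every array (24.1% of all features). Rpl35, a tunnel exit gene, had 0.00, 0.00 and −0.02, Rpl18 had −0.02, 0.03 and −0.03, and Rpl36al1 had 0.02, −0.03 and −0.03. Rps19, whose human counterpart is mutated in Diamond-Blackfan anaemia, had −0.03, 0.04 and −0.04. Means within 1 SD of 0 were also found for Rpl37a, with 0.01, 0.04 and −0.05, for Rpl9, with −0.03, −0.09 and 0.08, and for Rps16, with 0.03, −0.03 and 0.04.

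Rps27 and Rps27l, paralogs with nearly identical products, each had a probe. Rps27l had 0.05, −0.07 and 0.06, a mean of 0.01, and so lay below Rps27 on every array. Ribosomal protein genes have many processed pseudogenes and paralogs that a probe may also bind, so each gene's assignment is uncertain. This holds also for probes annotated to copies, such as Rpl37l1 with 0.11, 0.10 and 0.17. Members with a missing value were not tested. Rpl38, whose loss in mice alters skeletal patterning, had −0.25 and −0.16 on arrays 2 and 3 and was empty on array 1. Rplp1l3 had 0.16 and −0.04 on arrays 1 and 2 and was empty on array 3. Rpl38 was thus the lowest member of the 70 on array 2.

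Repeated probes could not be compared within the family, because 0 of its 70 genes had more than 1 probe, whereas 464 of the 4320 other named genes did. The spread between probes of the same gene could be taken only from other genes. Over genes with several probes of the same accession, the pooled SD between probes was 0.104, 0.171 and 0.103 on arrays 1, 2 and 3. The SD between the 68 ribosomal genes was 0.0631, 0.0666 and 0.0975, which is smaller on each array. Gapdh, a glycolytic enzyme spotted 15 times and singled out after its values were seen, ran from 0.03 to 0.15 on array 1, from 0.00 to 0.19 on array 2 and from −0.13 to 0.10 on array 3. Its SDs between probes were 0.0372, 0.0490 and 0.0591, which are smaller than the SD between the ribosomal genes on each array. The pooled genes were not matched to the ribosomal genes by spot brightness. Whether differences between ribosomal genes exceed the spread between probes was therefore not settled.

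The order of the ribosomal genes was weakly shared between arrays. Across the 68 genes Pearson's r was 0.119 between arrays 1 and 2, 0.443 between arrays 1 and 3 and 0.0257 between arrays 2 and 3. Across the other 3751 features it was 0.466, 0.477 and 0.156. Genes of an array share its hybridisation and layout and are not independent. After centring within each print block, the r of the ribosomal genes was 0.243, 0.236 and 0.147, so the value for arrays 1 and 3 was lower and those of the other pairs were higher.

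Part of the variation among the members followed their place on the slide. A probe's ID gives its block by 2 numbers and its row and column in the block by 2 more, and the first number runs from 1 to 8. On array 3 the median of all other probes was 0.11 at the first position and −0.05 at the sixth, and that of the ribosomal probes was 0.19 and 0.08 there. Array 1 had a like slope, with other probes at 0.05 at the first and −0.04 at the seventh position and ribosomal probes at 0.11 and 0.015. Array 2 sloped the other way. Its other probes were at −0.02 at the first and 0.06 at the eighth position, and its ribosomal probes at 0.02 and 0.075. Ribosomal probes were nevertheless above the other probes at all 8 positions on array 1, by 0.03 to 0.075, and at all 8 on array 3, by 0.06 to 0.13. On array 2 they were above at 5 of 8 positions and below at 2, with differences from −0.02 to 0.04. Each position held few ribosomal probes with 3 values, from 4 at the first to 13 at the second. Rps20 sat at the first position, and with each block centred its mean was 0.13 in place of 0.18. Rpl17, at the eighth, had a mean of 0.16 so centred. With block centring 57 of the 68 genes were above the median of all features (48.8% of all features).

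**Figure D3:**
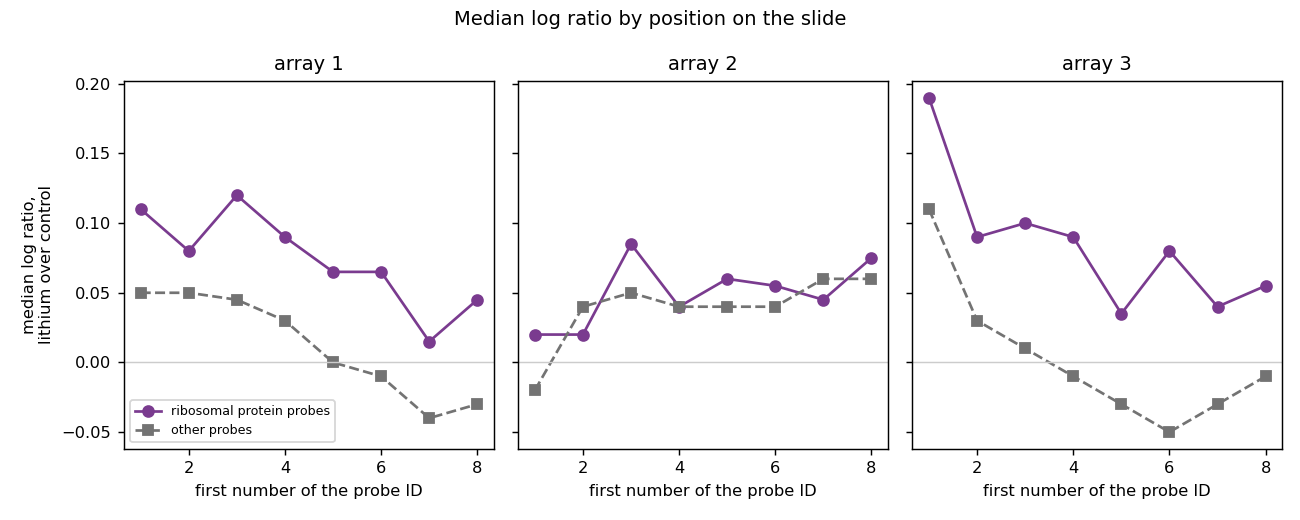
Median log ratio (vertical axis, lithium over control, log base not stated) of ribosomal protein probes (purple circles) and of all other probes with 3 values (grey squares), by the first number of the probe ID, 1 to 8, on each array. On arrays 1 and 3 both lines are lower at position 8 than at position 1 and the purple line stays above the grey one at all 8 positions; on array 2 the lines cross.

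The members also lay together within the blocks. Of their 70 probes 57 (81.4%) were in rows 11 and 12 of the 12 rows of a block, which hold 16.7% of all probes. The 55 ribosomal probes with 3 values in these rows had medians of 0.08, 0.06 and 0.07 on arrays 1, 2 and 3, against 0.00, 0.02 and −0.01 for the 676 other such probes in the same rows. The 13 ribosomal probes in rows 1 to 10 had medians of 0.06, 0.03 and 0.09, against 0.02, 0.05 and 0.00 for 3506 others. The shift of arrays 1 and 3 was thus present in both parts of the block, and on array 2 the ribosomal probes in rows 1 to 10 were below the others. Empty spots were rare among the members, with 1 of 70 on array 3 where 25.6% of all probes were empty. Spot brightness was not used here, and its part in the shift was not tested.

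Other genes of translation gave a mixed picture, on lists taken by symbol. Of 4 elongation factor genes 4 had a mean above 0 (55.7% of all features), with a median of 0.0467 and 0 past the limma threshold. Eef1a1, which delivers aminoacyl-tRNA to the ribosome and is itself encoded by a message with a pyrimidine tract, had 0.14, 0.15 and 0.12, the same on every array within 0.03 (mean 0.14 ± 0.02, SD, n = 3, adjusted p = 0.172). Eef2, the translocase, had 0.00, 0.17 and 0.01, so array 2 supplied its mean of 0.06. Of 9 initiation factor and regulator genes 5 were above 0 (55.7% of all features) and 3 below (42.7% of all features). The count above 0 is thus near the share of all features, and their median was 0.0067. They ranged from Eif5b, which joins the subunits, at 0.13 ± 0.04 (adjusted p = 0.187) to Eif2b3, a subunit of the exchange factor, at −0.17 ± 0.22 (adjusted p = 0.325).

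Cytosolic ribosomal proteins named outside the Rpl and Rps numbering were split. Rpsa, a protein of the small subunit, had 0.03, 0.16 and 0.14, and Fau, whose product is cleaved to a small subunit protein, had 0.02, 0.03 and −0.08. Of the mitochondrial ribosome, which is built from other proteins, Mrpl23 stood at 0.10 ± 0.06 and Mrps26 at 0.03 ± 0.11. The 6 measured genes of ribosome assembly and ribosomal RNA synthesis had a median of 0.0383, and none passed. Above 0 were 4 (55.7% of all features) and below it 2 (42.7% of all features). Among them the RNA polymerase I subunits Polr1a and Polr1b stood at 0.06 ± 0.05 and 0.06 ± 0.11, and the nucleolar chaperones Npm1 and Nolc1 at −0.04 ± 0.09 and −0.09 ± 0.05. Ssb, the La protein, which binds such tracts, had −0.04, −0.01 and −0.16.

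Of 7 growth control genes 3 were above 0 (55.7% of all features) and 4 below (42.7% of all features), with a median of −0.0367. Mycn, of the Myc family of transcription factors known to raise ribosome synthesis, was the only one past the threshold (0.445% of all features were). Its mean ratio was −0.28 ± 0.04 (SD, n = 3, limma adjusted p = 0.0476). That call was lost whichever array was dropped, since 0 features then passed limma's threshold. Its relative Myc had 0.01, −0.33 and −0.08 (adjusted p = 0.353). Mtor had 0.03, −0.16 and 0.02, and Rps6kb1, the kinase that phosphorylates the product of Rps6, had 0.20, −0.19 and 0.12. For Mtor and Rps6kb1 array 2 had the opposite sign to the other arrays.

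**Figure D4:**
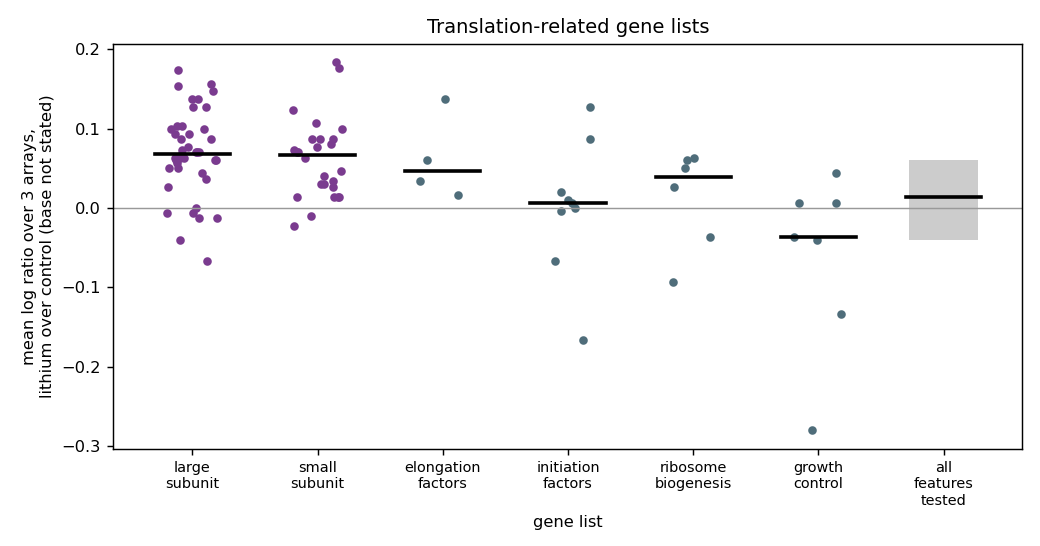
Mean log ratio over 3 arrays (vertical axis, lithium over control, log base not stated) of each large and small subunit gene (purple) and of each gene in 4 translation or growth lists (blue-grey), with black bars for medians and a grey box for the middle 50% of all 3819 features tested. The subunit medians of 0.0683 and 0.0667 lie above those of the elongation factors (0.0467) and of all features (0.0133).

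Markers of kidney segments and cell types differed in their ratios on the same arrays. All 8 principal cell markers of the collecting duct had means above 0, where 55.7% of all features did. They ran from 0.0067 for Aqp3 to 0.49 for Hsd11b2, with a median of 0.15. The 5 proximal tubule markers were above 0 as well, from 0.06 to 0.20. The 3 limb markers were below 0 (42.7% of all features), from −0.19 to −0.11. Ratios carry no level, so a marker's ratio does not show that its segment was present in the labelled inner medulla. The intercalated cell markers Slc4a1 and Car2 stood at 0.02 and 0.01 and the endothelial marker Kdr at −0.0067. The 4 leukocyte markers ranged from −0.39 to 0.16 and the 5 proliferation markers from −0.21 to 0.16. Hsd11b2 passed the limma threshold (adjusted p = 0.0234) and the others did not. The part of cell composition in the ribosomal shift was not tested.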

How the data were processed

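The deposited table held log ratios with 2 decimals for 5760 probes on 3 two-colour arrays. Scanner, background correction, normalization, log base and direction are not given in the sources used here, and the column medians were −0.02, −0.04 and 0.00. Probes were named from the platform's annotation, which can be old: 5064 had 1 gene symbol, 9 had several and 687 were not listed. Each array was centred on its median over all probes and probes of a gene were averaged. Features with 3 values were fitted with limma 3.58.1 in R 4.3.3 (intercept only, eBayes, Benjamini-Hochberg over all 3819 features, two-sided). The code of the fit was also run on data simulated from limma's own prior with independent normal errors. Such data hold no dye or position effect, so that run does not show how the fit performs on these arrays. Exact sign tests on 3 arrays cannot go below p = 0.25. The ribosomal genes and all lists were chosen with earlier results of these data known. Values are given in full for the 6 highest genes of each subunit (ties included), genes at or below the median of all features, genes with a missing value, and genes of fixed roles. Rpl37l1, Rps27 with its paralog, and Gapdh were discussed with their values known. Rps27a and Rpl41 are not among the genes analysed here. Sequences are from RefSeq (GRCr8), matched by gene ID. Python 3.11.15, pandas 2.3.3 and matplotlib 3.10.9 were used.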

Additional observations from a re-analysis of the deposited data

How the results depend on the processing

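With 3 arrays, no dye swap and no intensities, the number of arrays limits the precision. The large subunit median of 0.0683 was 0.0483 as deposited and 0.0517 with centring on the features measured on all arrays, shifts that the centring itself sets. With centring within print blocks it was 0.08, and this was not only a shift of the zero. The large and small subunit medians then lay 0.0667 and 0.0433 above that of all features, against 0.055 and 0.0533 in the main fit. With each array left out in turn the large subunit median ran from 0.065 to 0.08 and the small subunit median from 0.0475 to 0.0775. Their difference ran from −0.0025 to 0.025. The count of ribosomal genes above the median of all features was 52 of 69 without array 1, 57 of 68 without array 2 and 61 of 69 without array 3. That median was taken over 3834, 3832 and 4902 features in turn. The count of ribosomal genes past the limma threshold was 0 in every alternative except array weights, where it was 29. Over all features the count of 17 was 1055 with array weights, 98 after scaling all arrays to a common spread, 94 with a robust prior, 49 at an adjusted p of 0.10, 40 with genes measured on at least 2 arrays, 11 with single probes, 9 with complete probes only, 8 with no shared prior and 0 with any array left out. The share of starts with a tract was 20.7% for at least 7 pyrimidines and 60.3% with the start allowed to shift. Of 437 values of named genes under the alternatives, 425 stayed within 1 SD between arrays and 29, of 12 genes, had the other sign or were 0. Each of these genes has 1 probe and 3 values. Its mean therefore could not change with single probes, complete probes only or genes measured on at least 2 arrays. Leaving out exact zeros either dropped a gene or left its mean as it was. Values from these settings are included in the 437 and the 425. Centring on other probes in rows 11 and 12 and the shifted start were chosen after seeing the data. Each value is a ratio within an array, so the fit already pairs lithium with control RNA, and with 1 group no further block could be added.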
